A study of Mus musculus with 8 samples.

Results

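The genes described here are *Smad9* and 9 other genes of the pathway by which bone morphogenetic proteins (BMPs) set hepcidin, the hormone that controls iron: the receptor *Bmpr1a*, the SMADs *Smad1*, *Smad5*, *Smad6* and *Smad7*, and the BMP-induced genes *Id1*, *Id3*, *Atoh8* and *Hamp*. They were chosen by symbol, and all 10 were found among the 46078 gene identifiers of the deposited counts. All 10 also passed the filter on low counts, which kept 13856 genes. *Smad9* was picked because its level differed between the genotypes in these same livers, where it was among the 9 genes that DESeq2 called at an adjusted *P* of at most 0.05 (0.0379% of the 23751 genes it tested), so its difference is given as a description and without a test. The other genes were added as its partners in the pathway. At the same adjusted threshold, edgeR and limma-voom each called 0 of the 13856 genes.

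RNA-seq of poly(A)-enriched RNA was carried out on whole livers of 4 LWT and 4 LΔRbfox2 mice, with 1 library per liver. LWT mice were Alb_cre- Rbfox2 LoxP/LoxP and LΔRbfox2 mice were Alb_cre+ Rbfox2 LoxP/LoxP, so both groups carried the floxed alleles and only the second carried Cre, driven by the albumin promoter, which is active in hepatocytes. The presence of Cre and the loss of *Rbfox2*, which encodes a splicing factor, cannot be told apart in this design. Mice of both groups ate a control (chow) diet, which the labels give as 12 weeks and the methods of the study as 16 to 22 weeks from an age of 8 weeks. Males were used unless stated otherwise, and livers were taken after a fast of 16 h. The comparison asks which mRNAs differ when hepatocytes lack *Rbfox2*. The deletion was aimed at hepatocytes, and the state of the gene in other liver cells was not measured in these libraries. In whole liver, fewer cells of a type and less RNA per cell cannot be told apart.

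In the liver, BMP2 and BMP6 come mainly from sinusoidal endothelial cells and act on hepatocytes, where type I receptors such as BMPR1A (ALK3) phosphorylate the receptor SMADs, SMAD1, SMAD5 and SMAD9 (also called SMAD8). These join SMAD4, enter the nucleus and switch on *Hamp*, together with *Id1*, *Id3*, *Atoh8* and the inhibitory SMADs *Smad6* and *Smad7*, which act back on the pathway as a brake. Hepcidin, the product of *Hamp*, blocks iron export through ferroportin, and inflammation raises it separately through interleukin-6 and STAT3.

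Libraries held between 37482458 and 56177588 counts, and levels are given as CPM, the counts of a gene per 1000000 counts of the library, with library sizes scaled by TMM factors. The floor, set at 3 counts, lies between 0.0468 and 0.0929 CPM. This floor covers counting error only. CPM values below are each for the livers numbered 1, 2, 3 and 4 in the labels. TMM factors were 0.724 and 0.776 in LΔRbfox2 livers 3 and 4 and between 1.02 and 1.14 in the other 6 livers. On the first principal component over all genes tested (54.1% of the variance), LWT livers 1 and 4 and LΔRbfox2 liver 2 lay on the negative side (−0.5, −0.459 and −0.302) and the other 5 on the positive side (0.033 to 0.471). The targeted gene, *Rbfox2* (chromosome 15, 77078990 to 77307004, minus strand, GRCm38), was at 17.1, 10.4, 11.4 and 18.3 CPM in LWT livers and at 4.61, 6.09, 2.24 and 3.19 CPM in LΔRbfox2 livers. Its groups did not overlap, in the direction of the labels, with a log2 fold change of −1.82 (standard error 0.32, from limma-voom as in all that follows), but its adjusted *P* with the edgeR quasi-likelihood test was 0.504, against 0.000296 with DESeq2, and reached 0.91 among the 16 alternatives. The 7 hepatocyte markers, *Alb* among them, summed to 48402 to 70355 CPM in LWT and 53593 to 75098 CPM in LΔRbfox2 livers. *Alb* made up most of this sum, at 32478 to 49779 CPM in LWT and 34839 to 55318 CPM in LΔRbfox2 livers. The log2 fold change was negative for 3 of these markers and positive for 4 (−0.28 to 0.36).

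*Smad9* (ENSMUSG00000027796, chromosome 3, 54755582 to 54801257, plus strand) had the largest log2 fold change in size of the 10. It had 676, 652, 543 and 425 counts in LWT livers and 246, 393, 185 and 200 counts in LΔRbfox2 livers. Scaled to CPM, the LWT livers were at 17.7, 13.1, 11.3 and 9.79 and the LΔRbfox2 livers at 5.62, 6.14, 5.38 and 6.19. Every LΔRbfox2 liver was therefore below every LWT liver, as was the case for 1.23% of all genes tested in this direction, a share from which nothing is read for *Smad9* because the contrast chose it. The means were 13.0 ± 3.41 CPM (SD, n = 4) in LWT and 5.83 ± 0.397 CPM (SD, n = 4) in LΔRbfox2 livers, so the LΔRbfox2 mean was 45% of the LWT mean. The log2 fold change was −1.15 (standard error 0.21), and it lay between −1.26 and −0.99 when each liver was left out in turn. LWT livers also differed more among themselves, with a coefficient of variation of 26.3% against 6.8% in LΔRbfox2 livers.

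The *Smad9* promoter is shown because it holds GGCGCC, the letters at the core of the BMP-responsive element known from hepcidin promoters. The window is RefSeq sequence of GRCm38.p6, 250 bases before and 50 bases after the annotated start (chr3:54755332-54755631, plus strand), written 5′ to 3′ with that match in capitals. Its first letter is at position −51, where the first transcribed base is 1.

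Smad9 promoter: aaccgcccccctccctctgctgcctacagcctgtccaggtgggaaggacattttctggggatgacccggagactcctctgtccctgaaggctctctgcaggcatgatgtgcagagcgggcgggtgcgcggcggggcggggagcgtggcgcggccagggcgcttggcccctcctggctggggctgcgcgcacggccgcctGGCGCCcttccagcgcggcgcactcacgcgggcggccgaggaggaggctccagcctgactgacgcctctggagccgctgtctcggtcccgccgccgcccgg

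Such a match is a description and not a known binding site. RefSeq promoter windows were used for 8 of the 10 genes. None was given for *Id1*, and windows of these genes on chromosome 18, where *Smad7* lies, were left out. GGCGCC was present in at least 1 window of 4 of the 8: *Smad9*, *Smad5*, *Hamp* and *Bmpr1a*. Of all 32851 promoter windows of this length, 11.9% hold it. That share is per window, whereas the count before it is per gene, and the 8 genes had 10 windows. GGCGCC reads the same on both strands.

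**Figure D1:**
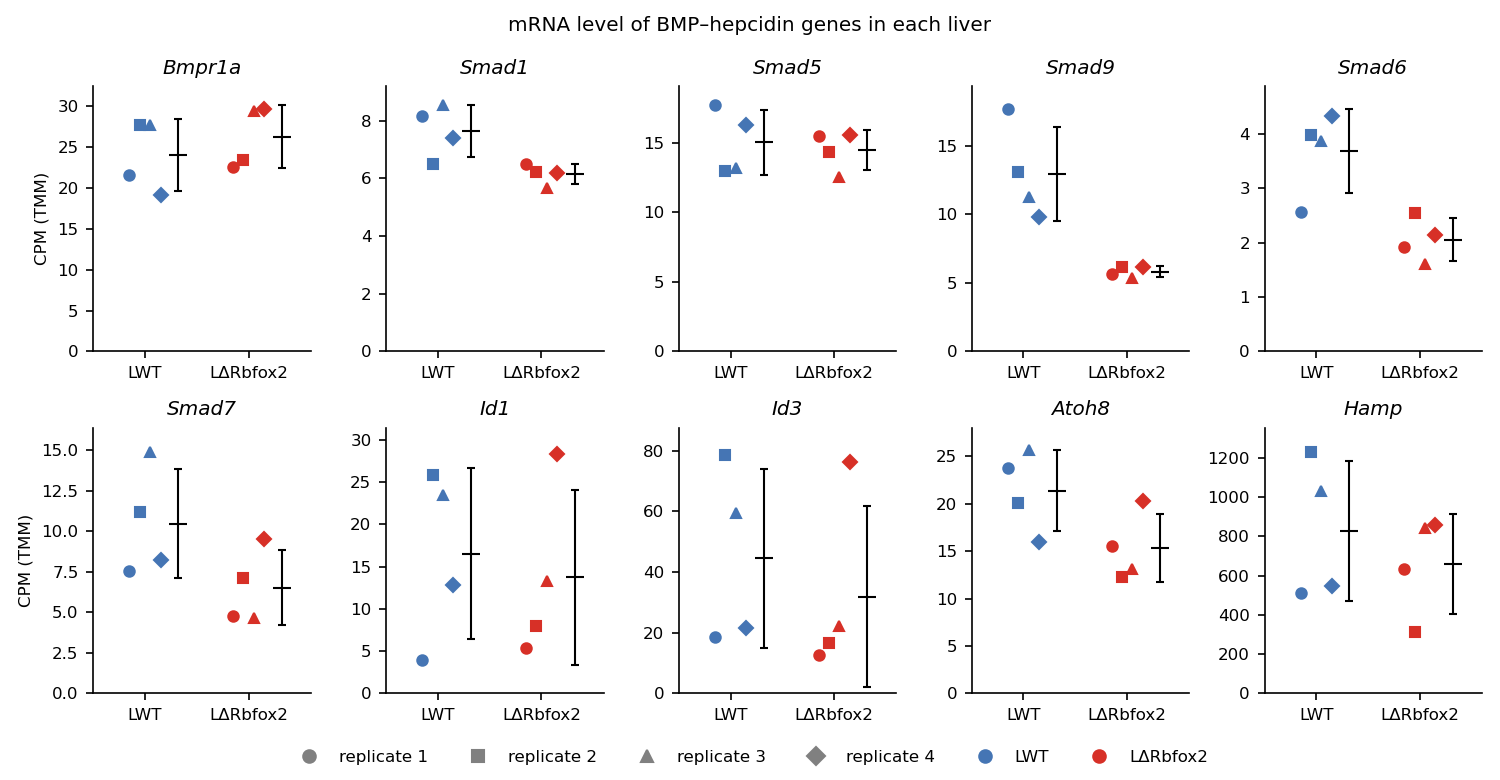
mRNA level of the 10 genes in each liver, in CPM scaled with TMM factors, for LWT (blue) and LΔRbfox2 (red) livers; symbols mark the replicate number and the bar is the mean ± SD (n = 4). Smad9 and Smad6 are the genes whose groups do not overlap, and Id1, Id3 and Hamp vary several-fold within each genotype.

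The genes most like *Smad9* were sought among all genes that passed the filter, by Pearson's r of log2 CPM over the 8 livers. They were *Leng9* (r = 0.969), *Creld1* (0.968), *Adap1* (0.943), *Adra1b* (0.926) and *Homer3* (0.921). These points share the difference between genotypes, and with the genotype means taken out r was 0.81, 0.77, 0.8, 0.46 and 0.66 in the same order. The 5 genes were picked for a high r in these same livers, so both sets of values are a description and carry no test. *Creld1*, which encodes a membrane protein with EGF-like domains, was at 30.3, 29.3, 28.6 and 27.5 CPM in LWT livers and at 24.1, 23.1, 22.7 and 23.0 CPM in LΔRbfox2 livers. It kept the order of *Smad9* among the LWT livers over a much narrower range, with a log2 fold change of −0.32. *Adra1b*, the alpha-1B adrenergic receptor, was at 20.7, 15.6, 15.2 and 17.3 CPM in LWT livers and at 10.7, 8.70, 10.3 and 10.3 CPM in LΔRbfox2 livers. *Leng9*, *Homer3* and *Adap1* were at lower levels, 1.86 to 2.43, 0.464 to 1.23 and 0.16 to 0.523 CPM over the 8 livers. *Adap1* lay closest to the floor, and counting error weighs more at such levels. None of the other 9 BMP pathway genes was among these 5.

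Of the other receptor SMADs, *Smad1* (ENSMUSG00000031681, chromosome 8, 79338395 to 79399518, minus strand) was at 8.15, 6.51, 8.53 and 7.39 CPM in LWT livers and at 6.51, 6.23, 5.67 and 6.19 CPM in LΔRbfox2 livers. The groups met at LWT liver 2 and LΔRbfox2 liver 1, and the log2 fold change of −0.31 (standard error 0.17) did not pass the edgeR test (adjusted *P* = 0.527). *Smad5* (ENSMUSG00000021540, chromosome 13, 56703010 to 56742377, plus strand) was at 17.7, 13.0, 13.2 and 16.3 CPM in LWT livers and at 15.5, 14.4, 12.5 and 15.6 CPM in LΔRbfox2 livers. Its groups overlapped, with LWT livers 1 and 4 above every LΔRbfox2 liver and LΔRbfox2 liver 3 below every LWT liver. The log2 fold change of *Smad5* was −0.05 (95% interval −0.42 to 0.34 with limma-voom, edgeR adjusted *P* = 0.896), and its sign turned with a correction for GC content and gene length (0.04). Another gene, *Gm27301*, shares 100 exonic bases with *Smad5* on the same strand.

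Levels were compared between the 3 receptor SMADs as CPM per kilobase of exon, with TMM factors. On this scale *Smad9* was at 2.41 ± 0.636 (SD, n = 4), *Smad5* at 2.03 ± 0.316 and *Smad1* at 1.22 ± 0.143 in LWT livers. In LΔRbfox2 livers *Smad5* was at 1.95 ± 0.190, *Smad9* at 1.09 ± 0.0739 and *Smad1* at 0.982 ± 0.0559 (SD, n = 4). *Smad9* was thus the most abundant of the 3 in 3 of 4 LWT livers and in 0 of 4 LΔRbfox2 livers, where *Smad5* was the highest in each. *Smad9* made up 47.1, 46.7, 40.1 and 35.1% of the summed level in LWT livers and 25.1, 28.1, 27.9 and 27.2% in LΔRbfox2 livers. The summed level of the 3 mRNAs was 5.66 ± 0.881 (SD, n = 4) in LWT and 4.02 ± 0.291 (SD, n = 4) in LΔRbfox2 livers. The order depends on the length used: with the longest annotated transcript in place of all exons, *Smad9* was highest in 2 of 4 LWT livers, and it lay above *Smad1* in 2 of 4 LWT and 0 of 4 LΔRbfox2 livers, against 4 of 4 in both groups with all exons. As *Smad9* enters each of these values, they carry no test.

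**Figure D2:**
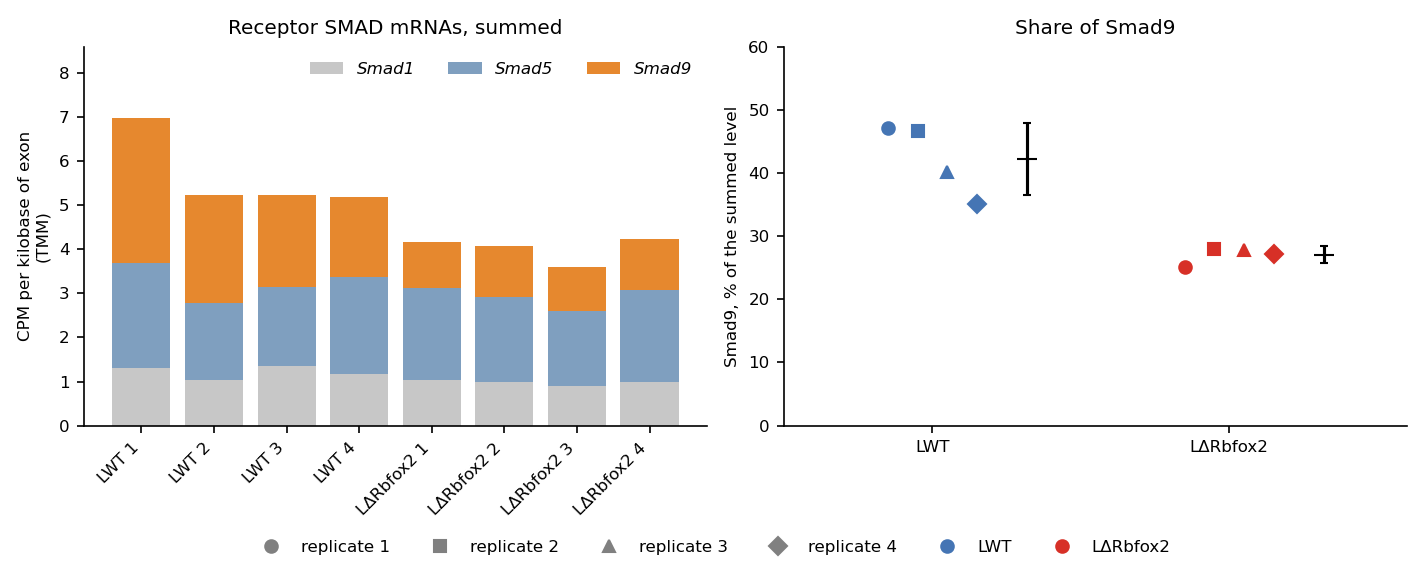
Left, CPM per kilobase of exon (TMM factors) of Smad1, Smad5 and Smad9 stacked for each liver. Right, Smad9 as a percentage of that sum, 35.1 to 47.1% in LWT and 25.1 to 28.1% in LΔRbfox2 livers, with the mean ± SD (n = 4).

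The type I receptor gene *Bmpr1a* (ENSMUSG00000021796, chromosome 14, 34410734 to 34503341, minus strand) was the only one of the 10 with a positive log2 fold change in the edgeR fit. It was at 21.6, 27.7, 27.8 and 19.2 CPM in LWT livers and at 22.5, 23.5, 29.5 and 29.7 CPM in LΔRbfox2 livers. The groups overlapped, with a log2 fold change of 0.13 (95% interval −0.28 to 0.55 with limma-voom, edgeR adjusted *P* = 0.755). *Gm17110* covers 290 exonic bases of *Bmpr1a* on the opposite strand, and the strand setting of the counting is not given in the sources used here.

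Both inhibitory SMADs were lower in mean in LΔRbfox2 livers, without passing the adjusted threshold. *Smad6* (ENSMUSG00000036867, chromosome 9, 63953076 to 64022059, minus strand), which keeps receptor SMADs from being phosphorylated, had 98, 198, 186 and 188 counts in LWT livers and 84, 163, 55 and 69 counts in LΔRbfox2 livers. In CPM these were 2.56, 3.98, 3.87 and 4.33 in LWT and 1.92, 2.54, 1.6 and 2.14 in LΔRbfox2 livers. The groups did not overlap, but LWT liver 1 stood only just above LΔRbfox2 liver 2. The means were 3.68 ± 0.774 and 2.05 ± 0.397 CPM (SD, n = 4), and the log2 fold change was −0.84 (standard error 0.24, edgeR adjusted *P* = 0.504, and 0.0855 to 0.91 over the 16 alternatives).

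*Smad7* (ENSMUSG00000025880, chromosome 18, 75367529 to 75395935, plus strand), which brings ubiquitin ligases to the receptors, was at 7.52, 11.2, 14.9 and 8.22 CPM in LWT livers. In LΔRbfox2 livers it was at 4.75, 7.15, 4.65 and 9.54 CPM. LΔRbfox2 liver 4 lay within the LWT range and the other 3 below it. The log2 fold change of *Smad7* was −0.68 (standard error 0.29, edgeR adjusted *P* = 0.504). Without an adjustment for the number of genes, *P* from the edgeR fit was 0.00576 for *Smad6* and 0.0448 for *Smad7*.

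The *Id* genes encode inhibitors of helix-loop-helix transcription factors and are direct readouts of BMP signalling in hepatocytes. *Id1* (ENSMUSG00000042745, chromosome 2, 152736251 to 152737410, plus strand) was at 3.95, 25.8, 23.5 and 12.8 CPM in LWT livers and at 5.32, 7.93, 13.3 and 28.4 CPM in LΔRbfox2 livers. Its highest and lowest livers were LΔRbfox2 liver 4 and LWT liver 1, so the spread within each genotype was wider than the distance between the means (16.5 ± 10.1 and 13.7 ± 10.3 CPM, SD, n = 4). The log2 fold change was −0.27 (standard error 0.64, edgeR adjusted *P* = 0.844), with a 95% interval of −1.72 to 1.13 from limma-voom. *Id1* values between −0.9 and 0.03 were obtained when livers were left out one by one.

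*Id3* (ENSMUSG00000007872, chromosome 4, 136143497 to 136145755, plus strand) was at 18.5, 78.7, 59.5 and 21.4 CPM in LWT livers and at 12.6, 16.5, 22.3 and 76.2 CPM in LΔRbfox2 livers. The livers fell into 2 sets that crossed the genotypes: LWT livers 2 and 3 and LΔRbfox2 liver 4 were between 59.5 and 78.7 CPM, and the other 5 between 12.6 and 22.3 CPM. The log2 fold change of −0.48 (standard error 0.61, edgeR adjusted *P* = 0.731) ran from −1.38 without LΔRbfox2 liver 4 to −0.05 without LWT liver 2. The same 3 livers had the 3 highest *Id1* levels and the 3 highest *Hamp* levels.

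*Atoh8* (ENSMUSG00000037621, chromosome 6, 72206177 to 72235577, minus strand), a helix-loop-helix factor that responds to BMPs and iron in the liver, varied far less between livers. It was at 23.8, 20.03, 25.7 and 16.0 CPM in LWT livers and at 15.5, 12.3, 13.1 and 20.3 CPM in LΔRbfox2 livers. LΔRbfox2 liver 4 lay above LWT livers 2 and 4, and the other 3 LΔRbfox2 livers lay below every LWT liver. The means were 21.4 ± 4.31 and 15.3 ± 3.59 CPM (SD, n = 4), with a log2 fold change of −0.48 (standard error 0.22, edgeR adjusted *P* = 0.504).

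*Hamp* (ENSMUSG00000050440, chromosome 7, 30942368 to 30944032, minus strand), the hepcidin gene and the output of the pathway, was by far the most abundant of the 10, with a mean of 2022 CPM per kilobase of exon in LWT livers and 1612 in LΔRbfox2 livers. Its level was 510.1, 1229.8, 1029 and 546.6 CPM in LWT livers and 632.9, 312.3, 842.1 and 856.2 CPM in LΔRbfox2 livers. LWT livers were both the highest and among the lowest, and all but 1 LΔRbfox2 liver lay between the LWT extremes. The means were 828.9 ± 357 and 660.9 ± 254 CPM (SD, n = 4), and the log2 fold change was −0.33 (95% interval −1.17 to 0.55 with limma-voom, edgeR adjusted *P* = 0.703). This interval spans values from below that of *Smad9* (−1.15) to above 0. Leaving out livers in turn gave *Hamp* values from −0.53 to −0.07, and the correction for GC content and gene length gave −0.95 (edgeR adjusted *P* = 0.633). The 3 livers on the negative side of the first principal component, LWT livers 1 and 4 and LΔRbfox2 liver 2, had the 3 lowest *Hamp* levels, 312.3 to 546.6 CPM against 632.9 to 1229.8 CPM in the others. This is not particular to *Hamp*: the same 3 livers had the 3 highest levels of the co-receptor gene *Hjv*, described below. The part of that component in the spread of *Hamp* was not tested.

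The *Hamp* promoter is shown because both arms of hepcidin control are known to act on it. The window is chr7:30943980-30944279 on the minus strand (RefSeq, GRCm38.p6), written as transcribed, 5′ to 3′. Capitals mark GGCGCC, with its first letter at position −109, and TTCNNNGAA, the pattern that STAT factors bind, at position −97.

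Hamp promoter: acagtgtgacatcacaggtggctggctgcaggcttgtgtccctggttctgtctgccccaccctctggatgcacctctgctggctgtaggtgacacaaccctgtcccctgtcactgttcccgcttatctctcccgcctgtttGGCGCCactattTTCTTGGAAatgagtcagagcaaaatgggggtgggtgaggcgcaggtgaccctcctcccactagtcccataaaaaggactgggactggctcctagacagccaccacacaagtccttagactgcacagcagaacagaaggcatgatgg

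No other of the 8 genes with a window held TTCNNNGAA, which is present in 8.3% of all windows and also reads the same on both strands. The 2 matches lie side by side and do not overlap.

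*Hamp* has a near copy, *Hamp2*, whose longest transcript (437 bases, against 410 for *Hamp*) was identical to it at 390 of 438 aligned positions (89.0%), with the longest identical run at 87 bases. Reads were 100 bases long, longer than any identical run, but how reads that align to both genes were counted is not given in the sources used here, so both levels are uncertain to that extent. *Hamp2* was at 6.19, 15.6, 10.1 and 6.26 CPM in LWT livers and at 12.1, 5.12, 5.67 and 11.7 CPM in LΔRbfox2 livers. The genotypes overlapped (log2 fold change −0.14, standard error 0.38, edgeR adjusted *P* = 0.876). *Gm44662* covers 89 exonic bases of *Hamp2* on the opposite strand.

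With the edgeR test, 0 of the 9 genes other than *Smad9* passed an adjusted *P* of 0.05, as did 0 of all 13856 genes (0.0%), and the same counts were 0 with limma-voom and, for the 9 genes, 0 with DESeq2. At an unadjusted *P* under 0.05, 2 of the 9 (*Smad6* and *Smad7*) were lower and 0 higher, against 1.83% of all genes tested lower and 7.95% higher (254 and 1102 genes, which became 338 and 829 with upper-quartile factors and 368 and 695 with the correction for GC content and gene length). The log2 fold change was negative for 8 of the 9 and positive for 1, with a median of −0.33, where the median over all genes tested was −0.02 and 7146 genes were negative and 6710 positive. In either direction these tests gave 9.79% of all genes at an unadjusted *P* under 0.05 with edgeR and 7.07% with limma-voom. Groups did not overlap for 1 of the 9, *Smad6*, which was lower, against 1.23% of all genes lower, 1.05% higher and 2.28% in either direction. These genes were chosen with earlier results of the same livers in view and share a pathway, so the counts are a description. On simulated counts for the 13856 genes kept by the filter, the edgeR test recovered 9 of 200 genes whose log2 fold change was set to 1. It recovered 177 of 200 where the log2 fold change was set to 2. DESeq2 recovered 82 and 183 with 23 and 36 unchanged genes called, against 0 and 8 for edgeR. In the livers themselves DESeq2 tested 23751 genes, so its numbers are not for the same set. How variation shared by many genes of a liver would alter these numbers was not tested.

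**Figure D3:**
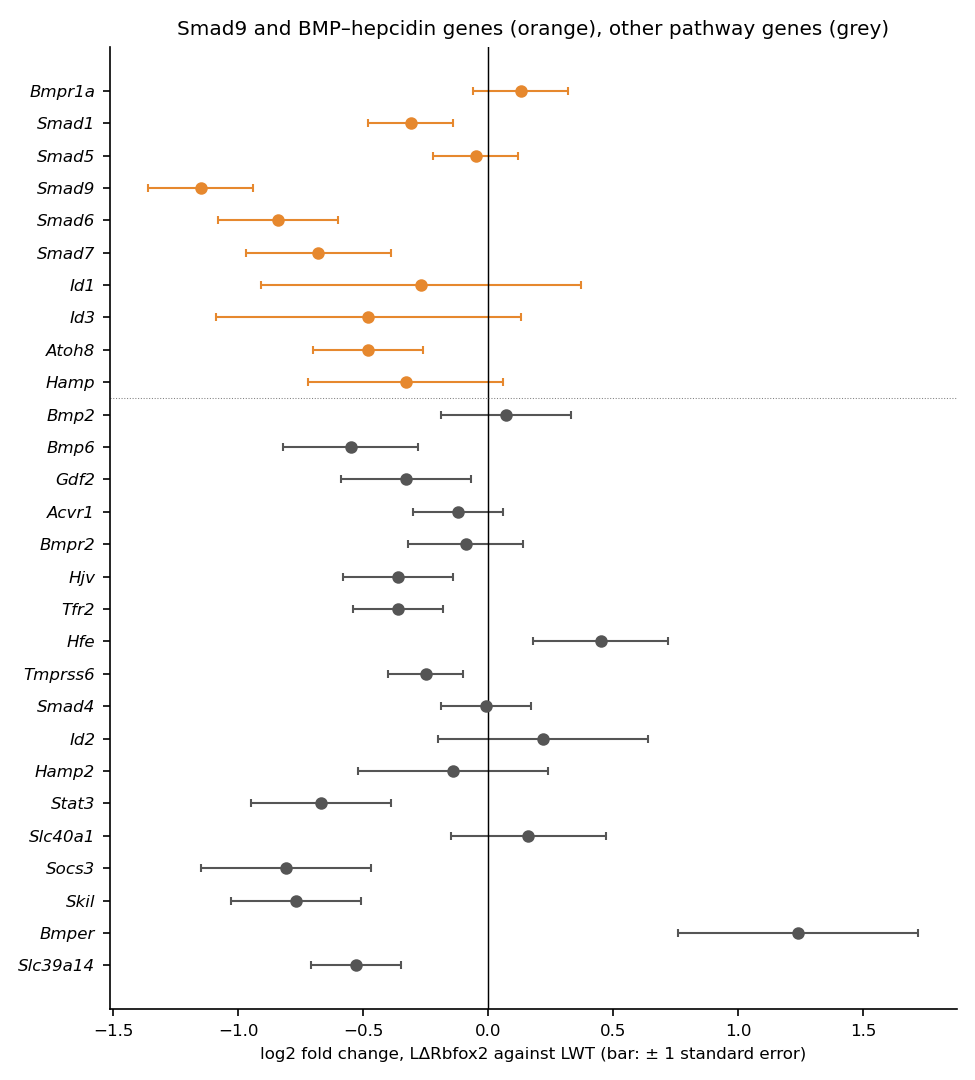
Log2 fold change of LΔRbfox2 against LWT livers (n = 4 each) from edgeR, with bars of ± 1 standard error from limma-voom, for the 10 genes (orange) and for other pathway genes named in the text (grey). Smad9 lies furthest to the left at −1.15, and of the orange genes the bars of Id1, Id3, Hamp, Smad5 and Bmpr1a cross 0. The 95% interval of Smad1 from limma-voom (−0.67 to 0.07) also crosses 0, and those of Atoh8 and Smad7 end just below it (−0.01 and −0.05).

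The next question is whether the BMP-induced genes moved together from liver to liver. Values over all 8 livers include the difference between genotypes, and only those on deviations from the genotype means leave it out. Of the 15 pairs of *Hamp*, *Id1*, *Id3*, *Smad6*, *Smad7* and *Atoh8*, the 5 with *Id3* are given no r because its livers fall into 2 sets, a limit chosen after the values were seen. With these 5 kept, 0 of 15 pairs passed over the 8 livers, but 1 of 15 passed on deviations from the genotype means. This was the pair of *Id1* and *Id3*, with an exact permutation *P* of 0.00174, the smallest that permutations within genotypes allow (adjusted 0.026), against 0.00573 over all 8 livers (adjusted 0.0859). All 10 other pairs had a positive r of log2 CPM over the 8 livers, but 0 of them passed an exact two-sided permutation test adjusted over the 15 pairs, by Pearson's r, by Spearman's rho, or on deviations from the genotype means. The pair of *Hamp* and *Id1* had r = 0.71 (exact permutation *P* = 0.0473, adjusted 0.118) and rho = 0.81 (exact permutation *P* = 0.0218, adjusted 0.109). Without the 2 livers farthest from the median of *Hamp* it was 0.79, and within genotypes 0.71 (exact permutation *P* = 0.0747). The pair of *Smad6* and *Smad7* had r = 0.77 (exact permutation *P* = 0.0273, adjusted 0.109) and rho = 0.71 (exact permutation *P* = 0.0576, adjusted 0.173), with r = 0.83 without the 2 farthest livers and 0.56 within genotypes. The pair of *Smad7* and *Atoh8* had r = 0.73 (exact permutation *P* = 0.0435, adjusted 0.118) and rho = 0.76 (exact permutation *P* = 0.0368, adjusted 0.138), but r dropped to 0.44 without the 2 farthest livers and 0.52 within genotypes. *Hamp* and *Smad6* had r = 0.17, the lowest of the 10, and −0.11 within genotypes. *Smad6* and *Atoh8* went from r = 0.44 over the 8 livers to −0.3 within genotypes, so these 2 pairs were not positive once the genotype means were taken out.

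**Figure D4:**
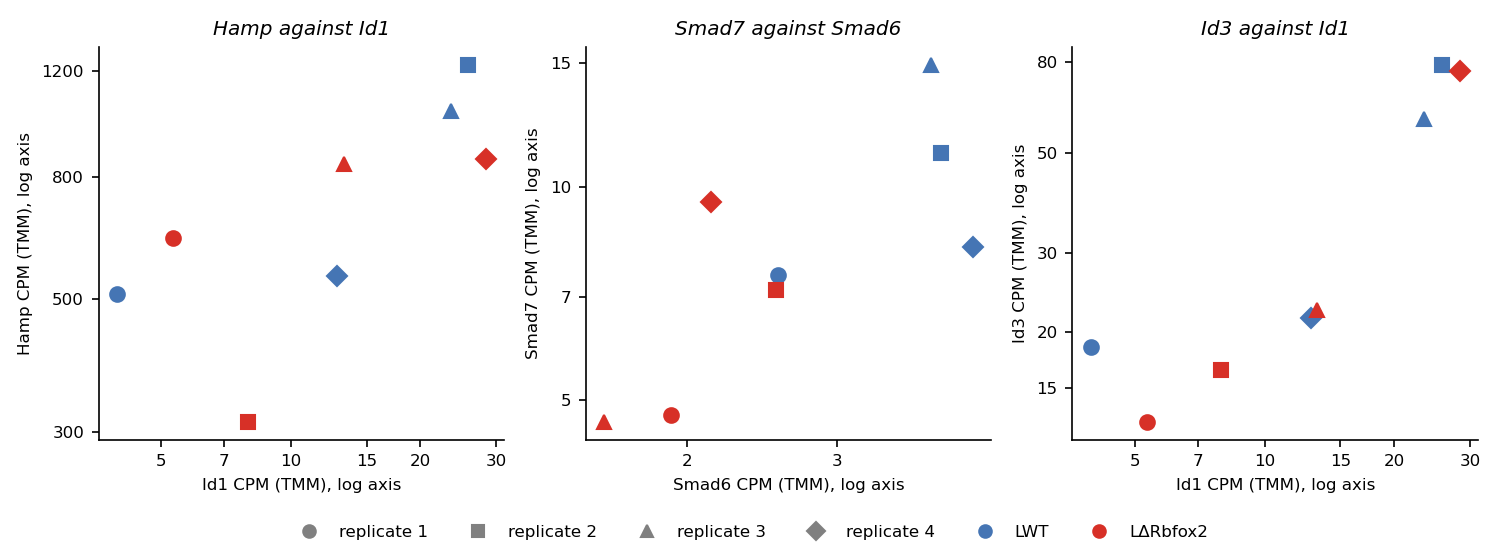
Level of Hamp against Id1, Smad7 against Smad6 and Id3 against Id1 in the 8 livers, in CPM on log axes, with colour for genotype and symbols for replicate number. Both genotypes spread along the Hamp and Id1 plot, and Id3 forms 2 sets, 12.6 to 22.3 and 59.5 to 78.7 CPM, each with livers of both genotypes.

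Upstream of the receptors, 7 of 8 BMP ligand genes could be tested, and 0 were lower or higher at an unadjusted edgeR *P* under 0.05 (median log2 fold change 0.06). Of all genes tested, 1.83% were lower and 7.95% higher at this threshold, shares that stand beside the counts of each list below. *Bmp6*, the ligand that follows liver iron, was at 2.95, 2.71, 2.85 and 2.23 CPM in LWT livers and at 2.06, 2.64, 1.40 and 1.21 CPM in LΔRbfox2 livers. LΔRbfox2 liver 2 lay within the LWT range, and the log2 fold change was −0.55 (standard error 0.27, edgeR adjusted *P* = 0.521). *Txndc5* shares 224 exonic bases with *Bmp6* on the opposite strand. *Bmp2*, the other main endothelial ligand, had a log2 fold change of 0.07 (standard error 0.26, edgeR adjusted *P* = 0.915). *Gdf2*, which encodes BMP9, had one of −0.33 (standard error 0.26, edgeR adjusted *P* = 0.599), which was −0.12 without LWT liver 2.

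Markers of sinusoidal endothelial cells had a summed level of 77.7 to 99.3 CPM in LWT and 63.1 to 91.0 CPM in LΔRbfox2 livers. Of these markers, 0 of 7 passed an unadjusted edgeR *P* of 0.05, against 9.79% of all genes tested (median log2 fold change −0.19). Kupffer cell markers summed to 55.5 to 97.3 CPM in LWT and 31.1 to 65.9 CPM in LΔRbfox2 livers. At that threshold 1 of 6 was lower, against 1.83% of all genes tested, with 4 negative and 2 positive log2 fold changes and a median of −0.18. The lower marker was the lectin gene *Clec4f*, at 26.2, 23.8, 37.02 and 23.8 CPM in LWT and 23.0, 12.6, 20.2 and 11.1 CPM in LΔRbfox2 livers, while *Marco* and *Timd4* had log2 fold changes of 0.48 and 0.08. The summed level was 90.8 to 185 CPM and 120 to 164 CPM for stellate cell markers (0 of 7 at that threshold, median −0.16). For cholangiocyte markers it was 14.6 to 25.8 CPM and 16.4 to 60.9 CPM (0 of 4 tested). All 4 had positive log2 fold changes, with a median of 0.53. Most of the highest cholangiocyte sum was *Spp1*, at 55.3 CPM in LΔRbfox2 liver 3. Lymphocyte markers, of which 0 of 5 passed the filter, summed to 0.333 to 0.743 and 0.217 to 1.53 CPM. The part of these cells in the levels of the BMP pathway genes was not tested.

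Among the other receptors and co-receptors, 11 of 12 genes were tested, with a median log2 fold change of −0.09. Of these, 0 had an unadjusted edgeR *P* under 0.05, against 9.79% of all genes tested. *Bmpr1b* was left untested, with at most 3 counts in any liver. *Hjv*, which encodes the BMP co-receptor hemojuvelin, was at 46.5, 37.4, 44.5 and 56.9 CPM in LWT livers and at 26.4, 45.3, 43.0 and 29.3 CPM in LΔRbfox2 livers (log2 fold change −0.36, standard error 0.22, edgeR adjusted *P* = 0.548). *Tfr2*, which senses iron-loaded transferrin, was at 266.8, 208.9, 241.4 and 294.9 CPM in LWT livers and at 215.4, 223.5, 169.5 and 179.0 CPM in LΔRbfox2 livers (−0.36, standard error 0.18, edgeR adjusted *P* = 0.515). LΔRbfox2 livers overlapped the LWT range for both genes. *Hfe*, the partner of *Tfr2* in iron sensing, had a log2 fold change of 0.45 (standard error 0.27, edgeR adjusted *P* = 0.547). The receptors *Acvr1* and *Bmpr2* had log2 fold changes of −0.12 and −0.09 (edgeR adjusted *P* = 0.766 and 0.87).

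*Smad4*, the SMAD that all branches share, had a log2 fold change of −0.01 (95% interval −0.41 to 0.37 with limma-voom, edgeR adjusted *P* = 0.981). For *Smad2*, *Smad3* and *Smad4* together, 0 of 3 had an unadjusted edgeR *P* under 0.05 (median −0.08). Of 17 extracellular and intracellular inhibitors and regulators of the pathway, 14 were tested, with a median of −0.02. At that threshold 1 was lower and 1 higher, against 1.83% and 7.95% of all genes tested. *Erfe*, *Nog* and *Grem1* had at most 3 counts in any liver. The lower gene was *Skil*, a SMAD co-repressor and TGF-β target, at 10.6, 12.2, 13.6 and 9.76 CPM in LWT livers and at 5.12, 6.26, 4.71 and 10.9 CPM in LΔRbfox2 livers. As for *Smad7*, *Id3* and *Atoh8*, LΔRbfox2 liver 4 lay among the LWT livers (log2 fold change −0.77, standard error 0.26, edgeR adjusted *P* = 0.504). The higher gene was *Bmper*, which encodes a BMP-binding endothelial regulator, with 8, 14, 9 and 9 counts in LWT livers and 44, 28, 16 and 6 counts in LΔRbfox2 livers (log2 fold change 1.24, standard error 0.48, edgeR adjusted *P* = 0.504), and without LΔRbfox2 liver 1 the value was 0.72. *Tmprss6*, the protease that removes hemojuvelin, was at 239.03 to 248.96 CPM in LWT livers and 176.6 to 240.2 CPM in LΔRbfox2 livers (−0.25, standard error 0.15, edgeR adjusted *P* = 0.55).

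*Id2*, another *Id* gene, was at 47.8, 139.2, 139.6 and 57.2 CPM in LWT livers and at 68.9, 88.7, 96.5 and 192.4 CPM in LΔRbfox2 livers (log2 fold change 0.22, standard error 0.42, edgeR adjusted *P* = 0.82). Its 3 highest livers were those of *Id1* and *Id3*. Together with *Id4* and *Hamp2*, 0 of 3 genes had an unadjusted edgeR *P* under 0.05 (median −0.14).

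The interleukin-6 arm of hepcidin control had 6 of 7 genes tested, of which 2 were lower and 0 higher at an unadjusted edgeR *P* under 0.05, against 1.83% and 7.95% of all genes tested. The median log2 fold change was −0.29, and −0.1 with the correction for GC content and gene length. *Il6* itself had at most 3 counts in any liver. *Stat3*, the factor of this arm that binds the *Hamp* promoter, was at 61.5, 31.3, 75.5 and 55.5 CPM in LWT livers and at 44.8, 39.3, 27.3 and 29.5 CPM in LΔRbfox2 livers. LWT liver 2 lay among the LΔRbfox2 livers, and the log2 fold change was −0.67 (standard error 0.28, edgeR adjusted *P* = 0.504). *Stat5a* covers 72 exonic bases of *Stat3* on the opposite strand. *Socs3*, a STAT3 target and feedback inhibitor, was at 4.78, 3.86, 6.30 and 5.36 CPM in LWT livers and at 1.26, 3.53, 3.34 and 3.44 CPM in LΔRbfox2 livers. Its groups did not overlap, as for 1.23% of all genes tested in that direction, and the log2 fold change was −0.81 (standard error 0.34, edgeR adjusted *P* = 0.504).

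All 13 iron handling genes were tested (median log2 fold change 0.13). At an unadjusted edgeR *P* under 0.05, 0 were higher, against 7.95% of all genes tested, and 1 was lower, against 1.83%. This was *Slc39a14* (ZIP14), which takes up non-transferrin iron, at 131.4, 106.9, 132.1 and 125.9 CPM in LWT livers and 74.1, 113.7, 81.1 and 73.9 CPM in LΔRbfox2 livers. LΔRbfox2 liver 2 was above LWT liver 2, and the others were below every LWT liver (−0.53, standard error 0.18, edgeR adjusted *P* = 0.504). *Slc40a1*, the gene of ferroportin, on which hepcidin acts, had a log2 fold change of 0.16 (95% interval −0.59 to 0.81 with limma-voom, edgeR adjusted *P* = 0.823). *Ireb2*, named after its values were seen as the gene of these 13 whose groups did not overlap, was at 55.8 to 60.5 CPM in LWT and 61.5 to 65.6 CPM in LΔRbfox2 livers (0.13, standard error 0.13, edgeR adjusted *P* = 0.663). Groups did not overlap in this direction for 1.05% of all genes tested. Over all 63 genes of these 7 lists, 57 were tested, 4 were lower and 1 higher at an unadjusted edgeR *P* under 0.05 (1.83% and 7.95% of all genes), 0 passed after adjustment, and the median log2 fold change was −0.06 with 33 negative and 24 positive.

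**Figure D5:**
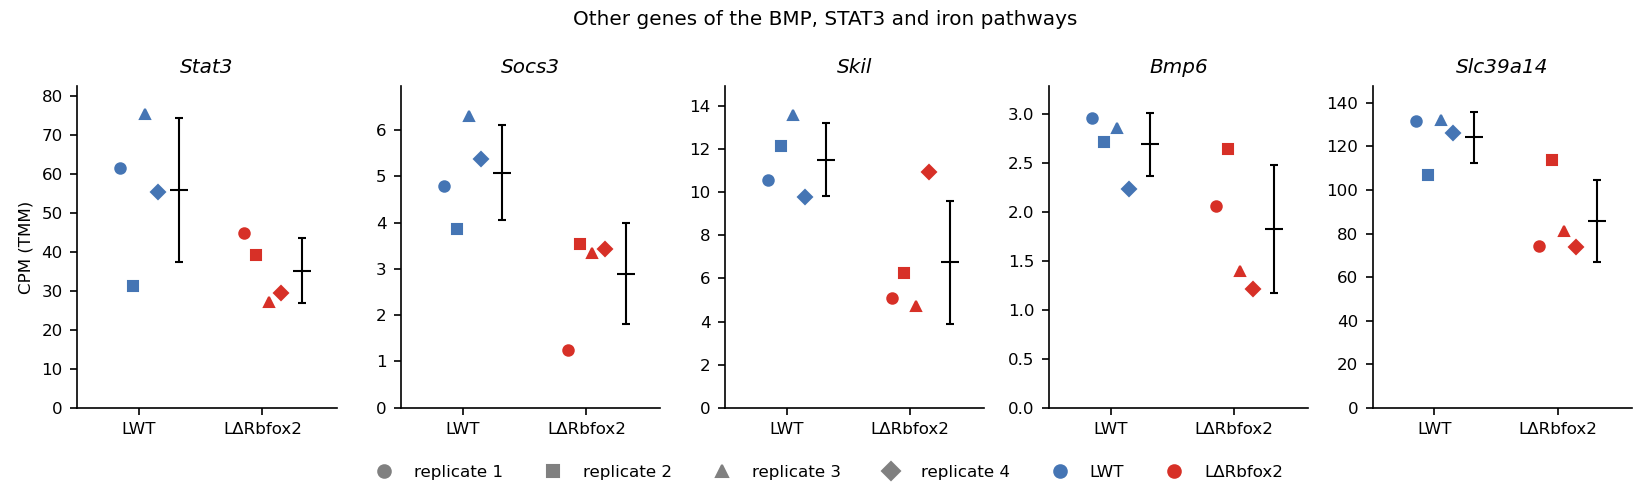
mRNA level of Stat3, Socs3, Skil, Bmp6 and Slc39a14 in each liver, in CPM scaled with TMM factors, with the mean ± SD (n = 4). Socs3 is the gene of the 5 whose LWT and LΔRbfox2 livers do not overlap, and 1 LΔRbfox2 liver lies within the range of the LWT values of Skil, Bmp6 and Slc39a14.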

How the data were processed

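Livers of 4 LWT and 4 LΔRbfox2 mice were compared, with genotype, diet and replicate number taken from the labels. The authors selected poly(A) RNA from each liver, sequenced it as paired reads of 100 bases, aligned these to GRCm38 with TopHat2 2.0.11 (CASAVA 1.8.4 in the submitters' processing notes) and counted reads per gene with featureCounts, whose settings are not given in the sources used here. The deposited values are those raw counts, whole numbers that had not been normalized. All columns matched a liver (0 without one), and no 2 libraries of a genotype were copies (chi-square per degree of freedom at least 97.8).

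Symbols, positions and exon lengths came from GENCODE M21, which matched 45229 of 46078 identifiers (*Hjv* through its older symbol *Hfe2*). In R 4.3.3, edgeR 4.0.16 with filterByExpr (minimum count 10, minimum total 15), TMM, glmQLFit and glmQLFTest compared genotypes, with Benjamini–Hochberg adjustment over all 13856 genes tested and a threshold of 0.05. Standard errors and 95% intervals came from limma-voom (limma 3.58.1). Log2 CPM used a prior count of 2. Permutation tests were exact and two-sided. The tests were tried on simulated counts with 200 genes changed. Where livers of a gene left a gap over 0.5 of their log2 range, with at least 2 livers on each side, they were taken as 2 sets. Python 3.11.15, scipy 1.17.1, numpy 2.4.6, pandas 2.3.3 and matplotlib 3.10.9 were used for the rest.

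The 10 genes, the 7 pathway lists and the marker lists were chosen with earlier results of these data known. Genes named are the 10, *Rbfox2*, 14 core pathway genes, list genes with an unadjusted *P* under 0.05 and the 5 genes most like *Smad9*. Alternatives were DESeq2 1.42.0, limma-voom, DESeq2 size factors or upper-quartile factors, no filter or at least 10 counts in every liver, a lowess correction (span 0.3) for GC content and gene length, the replicate number as a block, and each liver left out. For the correlations they were ranks, deviations from the genotype means, and other scalings, and for levels per kilobase the longest transcript.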

Additional observations from a re-analysis of the deposited data

Results flagged for a closer look

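In 58 groups of 4 livers (29 genes in each genotype), 2 held a liver far from the other 3 by Dixon's criterion, where chance would give about 2.9. *Id3* was at 76.2 CPM in LΔRbfox2 replicate 4 against 12.6 to 22.3 CPM in the other 3 LΔRbfox2 livers. LWT livers 2 and 3 were as high, at 78.7 and 59.5 CPM. *Socs3* was at 1.26 CPM in LΔRbfox2 replicate 1 against 3.34 to 3.53 CPM in the other 3. No explanation was tested for either.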

How the results depend on the processing

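*Smad9* kept its direction under all 16 alternatives, with log2 fold changes of −1.26 to −0.99 when a liver was left out. Its groups did not overlap and the same livers chose it, so a turn was hardly possible. The kept direction is therefore a description and no test. With DESeq2, 9 genes differed between genotypes in place of 0, and *Rbfox2* passed the threshold at the same log2 fold change of −1.82. With the GC content and length correction, *Smad5* turned to 0.04 and *Bmpr2* to 0.07, and the medians of the receptors and co-receptors, ligands, other BMP targets and interleukin-6 arm moved to 0.05, −0.1, −0.48 and −0.1. This correction also moved *Smad1* to −0.16, *Id1* to −0.56, *Hamp* to −0.95, *Hamp2* to −0.62, *Tfr2* to −0.18, *Tmprss6* to −0.14, *Id2* to 0.0015, *Stat3* to −0.42 and *Slc39a14* to −0.3. Upper-quartile factors moved *Bmpr1a* to 0.08, *Bmp2* to 0.02, *Id2* to 0.14 and *Slc40a1* to 0.09. Without TMM factors, 1 of the 10 pairs of BMP-induced genes without *Id3* passed the adjusted test in place of 0. With the longest transcript, *Smad9* made up 35.6% of the receptor SMADs in LWT and 22.1% in LΔRbfox2 livers, where leaving livers out gave 40.6 to 44.6% and 26.7 to 27.7%. The cause of these moves was not tested, beyond the shorter length counted for *Smad1* and *Smad5* in the last.

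Leaving out each liver turned the direction of 8 genes, none past the threshold: *Smad5* (−0.11 to 0.01), *Id1* (−0.9 to 0.03), *Bmp2* (−0.11 to 0.21), *Bmpr2* (−0.23 to 0.01), *Smad4* (−0.08 to 0.05), *Id2* (−0.18 to 0.46), *Hamp2* (−0.35 to 0.21) and *Slc40a1* (−0.03 to 0.36). *Id3* ran from −1.38 to −0.05, *Hamp* from −0.53 to −0.07, *Bmpr1a* from 0.03 to 0.21, *Gdf2* from −0.49 to −0.12, *Acvr1* from −0.18 to −0.05, *Hjv* from −0.49 to −0.23, *Bmper* from 0.72 to 1.51, *Smad6* from −1.0 to −0.76, *Smad7* from −0.92 to −0.46 and *Atoh8* from −0.64 to −0.38. The genes lower and higher at an unadjusted *P* under 0.05 numbered 254 and 1102, against 1131 and 2344 without LΔRbfox2 liver 2, and 122 and 282 without LΔRbfox2 liver 4.

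The replicate numbers did not pair the livers (correlations of deviations 0.127, −0.613, 0.122 and −0.514, with 1 of 8 livers correlating best with its own number). With the replicate block, 0 genes passed, 106 were lower and 229 higher at an unadjusted *P* under 0.05, and *Smad9* was at −1.12, *Smad6* at −0.84 and *Hamp* at −0.3. With 4 livers per genotype, wide intervals for *Id1*, *Id3* and *Hamp* limit what could be detected.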
